A study of Mus musculus with 12 samples.

Results

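The genes described here are 9 subunits of the SWI/SNF chromatin remodelling complexes and Bap1. They were chosen by name, and the copy-number segment that covers each gene was found through the gene names written in the segment tables of 2 murine lines of pancreatic ductal adenocarcinoma (PDAC). All 10 genes (Smarca4, Smarca2, Smarcb1, Smarcc1, Arid1a, Arid1b, Pbrm1, Arid2, Brd7 and Bap1), of 22036 gene names in the tables, were found, and each lay whole within 1 segment of each line. Pbrm1 and Bap1 shared a segment, so the 10 genes gave 9 separate values per line.

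The primary PDAC lines 15376T and 14837T were derived from engineered C57BL/6 mice whose alleles include p48-Cre, ROSA_rtTA and p53 L/+, and were kept in medium with doxycycline. p48, or Ptf1a, is a transcription factor of the developing pancreas, so the Cre recombinase acts in the pancreatic lineage. Genomic DNA of each line, both of them labelled WT, gave 1 library for whole-exome sequencing (WES). The libraries, WES-15376T and WES-14837T, are called 15376T and 14837T from here on. The ages of the mice are not given in the sources used here, and the RNA-seq samples and the DNA of tail tissue were not analysed here. Because each line is 1 isolate with 1 library, the lines are compared by their values and without a test.

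SWI/SNF complexes use the energy of ATP to slide or evict nucleosomes and so open or close stretches of chromatin. Each complex is built around one of a pair of alternative ATPases and a shared core, and adds subunits that make it canonical BAF, PBAF or non-canonical BAF (ncBAF). Several of these subunits are tumour suppressors in human pancreatic cancer. Bap1 is not a SWI/SNF subunit. It is a deubiquitinase that removes ubiquitin from histone H2A and is a tumour suppressor in its own right, and its gene lies close to the PBAF gene Pbrm1.

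The authors' tables give each segment its number of bins, its mean read depth, the log2 ratio of that coverage to a reference, the copy number as a whole number and a B-allele fraction, or BAF, which is the share of reads that carry the second allele at variant sites. The integer calls followed thresholds on log2, with 2 copies between -0.25 and 0.2, 3 copies above 0.2, 4 copies above 0.7 and 1 copy below -0.25. More than 2 copies is called gained here and fewer than 2 is called lost. The tables held 191 and 235 segments, and the mean read depth over the autosomes was 43.4 in 15376T and 47.5 in 14837T. In place of replicates, the spread was taken from the autosomal segments at 2 copies, whose log2 had an SD of 0.090 in 15376T and 0.095 in 14837T. This SD is bounded by the thresholds of the call and belongs to 1 line. It serves as a scale and does not measure the error of a difference between the lines. If every cell had lost 1 of 2 copies, the log2 would be -1, and the lowest value among the 10 genes was -0.59. Fewer copies in every cell and a loss in part of the cells cannot be told apart. The kit named in the study's methods (NimbleGen) and the kit named in the labels (Agilent SureSelect) differ, and either was designed for human exons.

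At the authors' thresholds, some of the 10 genes were lost in each line and some were gained in 14837T. The counts rest on 9 separate segments per line, and whether they differ from the shares of all genes was not tested. In 15376T, 4 of the 10 genes were called lost (Arid1a, Pbrm1, Smarcc1 and Bap1), beside 30.1% of the 20947 autosomal genes that lay in 1 segment of each line. None of the 10 was called gained there, beside 9.09% of all genes. In 14837T, 4 were called lost (Arid1a, Pbrm1, Bap1 and Smarcb1), beside 28.8% of all genes, and 4 were called gained (Arid1b, Arid2, Smarca2 and Smarca4), beside 21.4%. The call differed between the lines for 6 of the 10 (Smarca4, Smarca2, Smarcb1, Smarcc1, Arid1b and Arid2), beside 29.3% of all genes. With calls at an absolute log2 of 0.5, 0 of the 10 were gained and 0 lost in 14837T. The call then differed for 3 other genes (Arid1a, Pbrm1 and Bap1, lost in 15376T only) and for none of those 6. The shares of all genes at 0.5 are not given here, so these counts cannot be set beside them. At the authors' thresholds, Arid1a, Pbrm1 and Bap1 were lost in both lines, beside 22.4% of all genes, which is a count of 3 genes in 2 segments. Brd7 was called at 2 copies in both lines. None of the 10 was gained in both lines (6.87% of all genes), and none was lost in one line and gained in the other (1.55%).

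**Figure D1:**
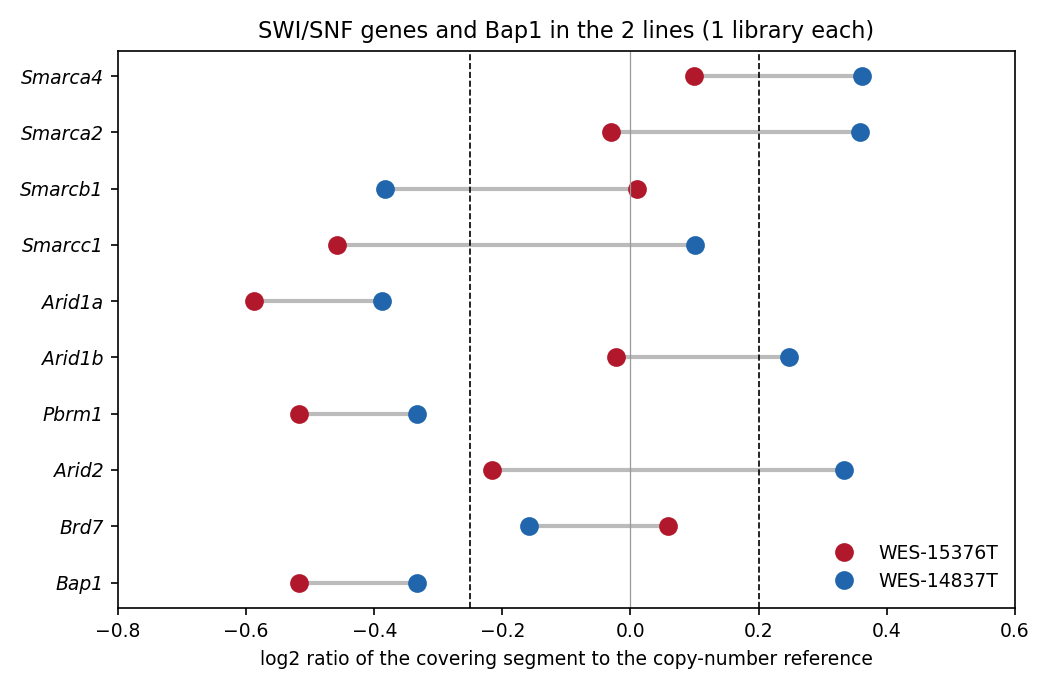
The log2 ratio of the segment that covers each gene is plotted on the x axis for 15376T (red) and 14837T (blue), 1 library each, with grey bars joining the lines and dashed lines at the thresholds of -0.25 and 0.2. Arid1a, Pbrm1 and Bap1 sit left of -0.25 in both lines, and the values of Smarca4, Smarca2, Arid1b and Arid2 in 14837T sit right of 0.2, whereas their values in 15376T do not.

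The difference in log2 between the lines was larger than the larger SD of 0.095 for all 10 genes, beside 55.1% of all genes. Its median size was 0.27 for the 10 genes and 0.12 for all genes. The value was lower in 15376T for 8 of the 10, and 59.2% of all genes were lower there. Smarcb1 and Brd7 were the genes with the higher value in 15376T. The median log2 of the 10 genes was -0.12 in 15376T and -0.029 in 14837T, against -0.023 and -0.045 for all genes.

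Both ATPases were called at 2 copies in 15376T and 3 in 14837T. Smarca4 (Brg1), the ATPase found in most SWI/SNF complexes, lies on chromosome 9 at chr9:21616106-21704230. Its segment had a log2 of 0.099 in 15376T and 0.36 in 14837T, which correspond to 2.14 and 2.57 copies on a linear scale. It was thus called at 2 copies in 15376T and at 3 in 14837T, with a difference of 0.26 in log2.

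The Smarca4 segment was short and of similar extent in both lines, 2.44 Mb with 84 genes in 15376T and 2.90 Mb with 86 genes in 14837T. It rose above both of its neighbours in each line. The neighbours had log2 of -0.10 and -0.038 in 15376T, and 0.045 and 0.202 in 14837T. The step over the neighbours was therefore present in the line in which Smarca4 was called at 2 copies as well, at 0.20 and 0.14. The segment was also much denser in capture bins than its surroundings, with 310 bins per Mb in 15376T against 57.2 and 39.9 in its neighbours, and 266 in 14837T against 42.8 and 44.8.

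Bin density moved with log2 along the genome. Among segments of at least 100 bins, those denser than both neighbours lay above both in log2 in 27 of 34 cases (79.4%) in 15376T and 45 of 53 (84.9%) in 14837T, with a median step of 0.14 and 0.18. Those sparser than both neighbours lay above both in 3 of 32 (9.38%) and 4 of 52 (7.69%). The segments of Pbrm1, Bap1, Smarca4, Smarcb1 and Smarcc1 were denser than both neighbours in each line, and that of Brd7 in 15376T. The part of bin density in the steps around these genes was not tested. Between the lines, the segment density was 81.6 bins per Mb in 15376T and 196 in 14837T for Arid2, 117 and 70.5 for Brd7, and 494 and 289 for Pbrm1 and Bap1. For Arid2 and Brd7 the line with the denser segment had the higher log2, and for Pbrm1 and Bap1 it had the lower. The part of density in the differences between the lines was not tested either.

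Smarca2 (Brm), the alternative ATPase, lies at chr19:26605073-26778321. Its segment had a log2 of -0.030 (1.96 copies) in 15376T and 0.36 (2.56 copies) in 14837T. Smarca2 was thus called at 2 and 3 copies, and the difference of 0.39 in log2 was reached or passed by 15.1% of all genes. Its segment was broad, 23.5 Mb in 15376T and 24.9 Mb in 14837T, and its right border fell within 0.65 kb of the same place in both lines. In 14837T the neighbours were also high, with log2 of 0.50 and 0.475. In 15376T they were 0.42 and 0.065, so Smarca2 lay in the lower stretch between them.

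Each of the core subunits Smarcb1 and Smarcc1 was lost in a different line. Smarcb1 (Snf5, Baf47), which helps to anchor the complex on the nucleosome and is the gene inactivated in human rhabdoid tumours, lies at chr10:75896769-75921614. Its log2 was 0.010 in 15376T and -0.38 in 14837T, corresponding to 2.01 and 1.53 copies. Smarcb1 was the only one of the 10 genes lost in 14837T and at 2 copies in 15376T. Its segment in 14837T began 257 kb to the left of the gene, within Susd2, and the log2 beyond that border was -0.019, at 2 copies. The loss covered 7.26 Mb and 246 genes, and the next segment on the right was lower still, at -0.57. In 15376T the segment over Smarcb1 spanned 8.65 Mb.

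Smarcc1 (Baf155), a scaffold subunit around which the core is assembled, lies at chr9:110132024-110240178. Its log2 was -0.46 in 15376T and 0.10 in 14837T, corresponding to 1.46 and 2.14 copies. It was called lost in 15376T and at 2 copies in 14837T. The difference of 0.56 was the largest among the 10 genes, and 3.02% of all genes differed at least as much. The segment depths gave a difference of -0.60 (15376T minus 14837T) when each was divided by the mean depth of 2-copy segments of its line.

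The borders of the Smarcc1 segment were nearly the same in both lines, 51.0 kb apart on the left and 54.0 kb on the right. On the right the border lay 332 kb from Smarcc1, within Setd2, in 15376T and 278 kb from it, within Kif9, in 14837T. In each line the segment lay above its neighbours, which had log2 of -0.62 and -0.59 in 15376T and -0.026 and -0.075 in 14837T. It held 356 bins per Mb in 15376T against 142 and 117 in the neighbours, and 344 in 14837T against 248 and 117. The segments on both sides of Smarcc1 were thus lost as well in 15376T, whereas the segments next to it were called at 2 copies in 14837T. Farther to the left, 14837T was called lost too, at -0.27.

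**Figure D2:**
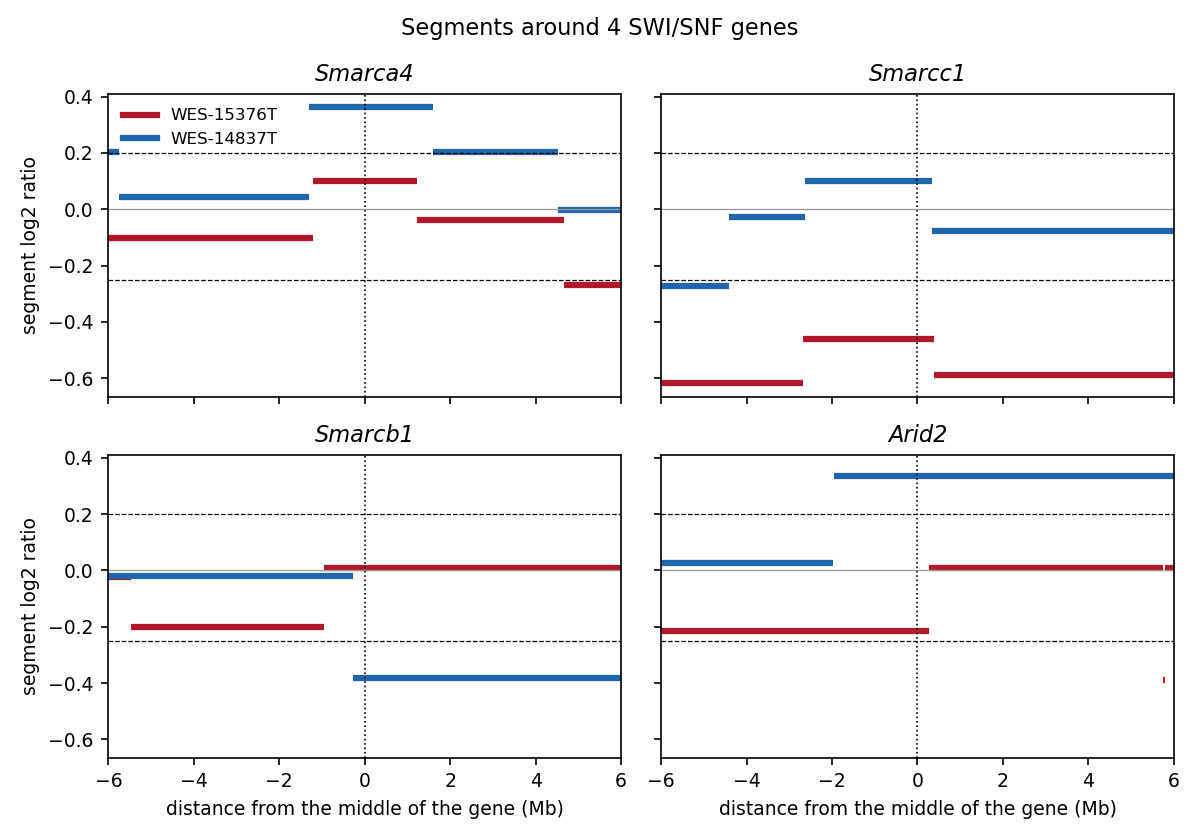
Segment log2 ratio is drawn against the distance from the middle of each gene, in Mb, for Smarca4, Smarcc1, Smarcb1 and Arid2 in 15376T (red) and 14837T (blue); dotted lines mark the gene and dashed lines the thresholds of -0.25 and 0.2. The lines run apart on both sides of Smarcc1, whereas borders fall close to Smarcb1 in 14837T and to Arid2 in 15376T.

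The subunits of canonical BAF, Arid1a and Arid1b, are alternative to each other within a complex. Arid1a (Baf250a), one of the SWI/SNF genes most often mutated in human cancers, lies at chr4:133679008-133756769. Its log2 was -0.59 in 15376T and -0.39 in 14837T, or 1.33 and 1.53 copies. Arid1a was lost in both lines and had the lowest log2 of the 10 genes in each. Its loss was broad, as the segment spanned 142.9 Mb with 1161 genes in 15376T and 82.9 Mb with 785 genes in 14837T. Both segments ended at the same position, 146117266. The next segment on the right began at 147541026 in both lines and was called at 1 copy too, at -0.56 in 15376T and -0.39 in 14837T. The called loss thus went on past that shared end. The difference of 0.20 between the lines was reached or passed by 37.8% of all genes.

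Arid1b (Baf250b), the alternative to Arid1a, lies at chr17:4994297-5347656. Its log2 was -0.023 (1.97 copies) in 15376T and 0.25 (2.37 copies) in 14837T. The difference of 0.27 was reached or passed by 24.4% of all genes. The gain in 14837T was the smallest among the 4 gained genes, 0.048 above the threshold. It rested on 210 bins, the fewest of any segment that covers one of the 10 genes, over 3.13 Mb and 17 genes, and the segment to its right was at 0.62. The BAF of the segment was 0.366, the highest among the 10 genes, and the authors' allele call was 2 copies and 1 copy. Arid1b was called lost in neither line, whereas Arid1a was called lost in both.

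Of the PBAF subunits, Arid2 (Baf200), which marks PBAF in the way that the Arid1 proteins mark BAF, lies at chr15:96287522-96405463. Its log2 was -0.22 (1.72 copies) in 15376T and 0.33 (2.52 copies) in 14837T. The difference of 0.55 was close to that of Smarcc1 and was reached or passed by 3.17% of all genes. In 15376T the value was 0.034 above the threshold of a loss, so the gene is counted at 2 copies by a narrow margin. A border lay 204 kb to the right of Arid2 in that line, within Slc38a1, and the log2 beyond it was 0.0086. In 14837T the segment spanned 9.55 Mb and 218 genes, and its left neighbour was at 0.028. The segment depths gave a smaller difference than the log2, -0.44.

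Brd7, a bromodomain protein of PBAF that binds acetylated histones, lies at chr8:88329894-88362252. Its log2 was 0.058 in 15376T and -0.16 in 14837T, or 2.08 and 1.79 copies. Brd7 was thus called at 2 copies in both lines. Its segment was 21.7 Mb long with 275 genes in 15376T and 7.13 Mb long with 43 genes in 14837T. The difference of 0.22 was past the larger SD, but the segment depths gave 0.080, which was below it.

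Pbrm1 (Baf180), the PBAF subunit with several bromodomains in a row, lies at chr14:31019138-31121592, and Bap1 lies at chr14:31251352-31259930, with 129.76 kb between them. Their shared segment had a log2 of -0.52 in 15376T and -0.33 in 14837T, or 1.40 and 1.59 copies. Both genes were thus lost in both lines, and the difference of 0.18 was reached or passed by 40.8% of all genes. The value in 14837T was 0.084 below the threshold of a loss. The mean depth of the segment was 35.4 in 15376T and 42.4 in 14837T.

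The surroundings of Pbrm1 and Bap1 were unlike in the lines. In 15376T the lost segment was short, chr14:30765997-31732119, with 0.966 Mb, 477 bins and 31 genes, and lay between a pair of gained segments. The segment on its left, chr14:30479599-30765496, had a log2 of 0.66 and was called at 3 copies over 58 bins. The segment on its right, chr14:31734939-31928939, had a log2 of 0.72 and was called at 4 copies over 12 bins, the smallest number of bins in any segment of that library. Beyond these the log2 returned to -0.64 on the left and -0.59 on the right. Farther left, gained segments followed at 1.99 (8 copies) and 0.64 (3 copies). In 14837T the segment, chr14:30129728-32274963, was longer, with 2.145 Mb, 621 bins and 44 genes, and its neighbours were lost too, at -0.63 and -0.50.

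The gained segments beside Pbrm1 and Bap1 could be followed gene by gene in 15376T, where the gene table lists read depth. Sfmbt1, the first gene of the lost segment on the left, had a mean depth of 41.5 over 19 bins. Ankrd28 was cut by the right border, with a depth of 49.4 over 17 bins on the lost side and 96.9 over 10 bins on the gained side. Among genes with at least 5 bins, the depth ranged from 60.8 to 96.7 for the 4 genes of the left gained segment and from 17.3 to 53.6 for the 25 genes of the lost segment. The depths of these genes in the lost segment and in the gained segments beside it did not overlap. The segments were drawn from the same coverage, so this is no separate support for them. The right gained segment held only Ankrd28.

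**Figure D3:**
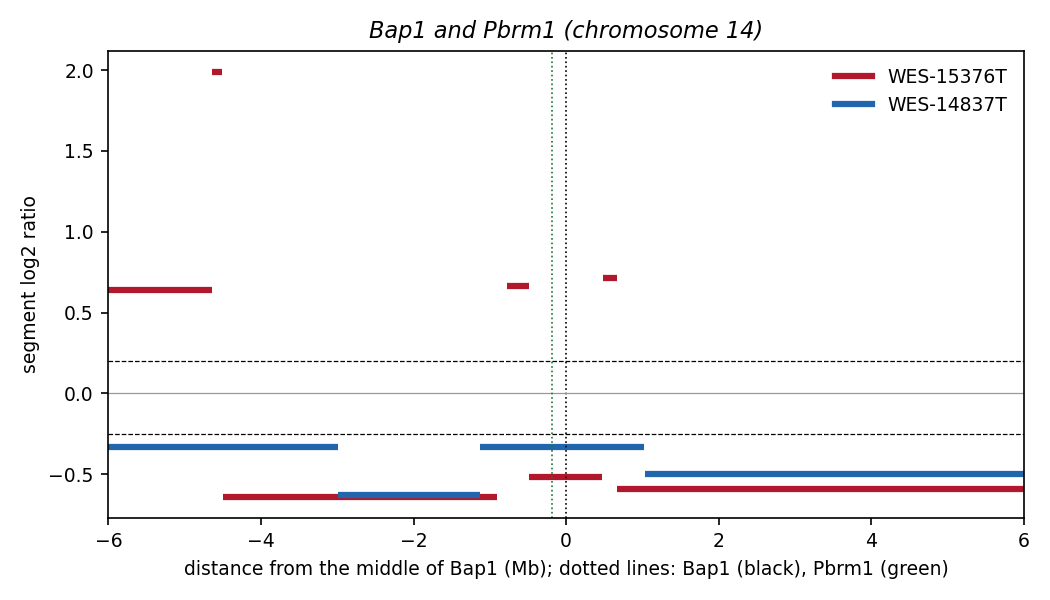
Segment log2 ratio is drawn against the distance from the middle of Bap1, in Mb, in 15376T (red) and 14837T (blue); dotted lines mark Bap1 (black) and Pbrm1 (green), and dashed lines the thresholds of -0.25 and 0.2. The segment over both genes is at -0.52 in 15376T, between short segments at 0.66 and 0.72, whereas all segments of 14837T in this window are below -0.25. Farther left, 15376T has further gained segments at 1.99 and 0.64.

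Since Pbrm1 and Bap1 are the members that share a segment, the stretches just before their annotated starts are shown. They are RefSeq sequence on GRCm38.p6 of the plus strand, chr14:31018888-31019137 for Pbrm1 and chr14:31251239-31251351 for Bap1. The capitals mark CACGTG, the palindromic E-box, which reads the same on both strands.
Pbrm1: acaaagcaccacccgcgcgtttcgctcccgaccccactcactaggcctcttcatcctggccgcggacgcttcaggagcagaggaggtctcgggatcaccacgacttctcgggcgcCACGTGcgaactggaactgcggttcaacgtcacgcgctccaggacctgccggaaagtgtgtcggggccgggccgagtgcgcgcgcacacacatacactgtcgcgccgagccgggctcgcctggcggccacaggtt
Bap1: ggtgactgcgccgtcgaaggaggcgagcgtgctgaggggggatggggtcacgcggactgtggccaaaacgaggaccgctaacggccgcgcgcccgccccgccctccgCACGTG

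The E-box began 135 bases before the RefSeq gene start of Pbrm1 and 6 bases before that of Bap1. It was searched in promoter windows of 300 bases, 250 before and 50 after a start, after these sequences had been seen. The Bap1 window, chr14:31251239-31251538, is set on a later start than the gene start used for the 6 bases. The distances for Pbrm1 and Bap1 are therefore not on the same footing. RefSeq windows were given for 9 of the 10 genes, with 10 windows in all, and Arid2 had none. The E-box was in the windows of Pbrm1 and Bap1 and in no other of the 10 (20%), against 2349 of all 32851 windows (7.15%). The windows of the 10 genes were rich in C and G, with a median of 33 CG dinucleotides and 67% GC against 7 and 52.7% for all windows. The window of Pbrm1 held 35 CG dinucleotides and that of Bap1 held 50. The match is a description of the letters, and the copy-number data do not bear on the use of these promoters.

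The depth of a gene itself was listed only from an absolute segment log2 of about 0.40, which took in 4 of the 10 genes in 15376T and none in 14837T. Depth per gene also holds the capture efficiency of its exons, so it was set against other genes of the same segment with at least 5 bins. Bap1 had a depth of 34.2 over 15 bins, and the median of 24 other genes was 34.8, of which 12 were deeper. Pbrm1 had 39.1 over 34 bins, and 8 of 24 other genes were deeper. Both genes thus lay in the middle of their segment, at -0.026 and 0.20 on the log2 scale from its median, where the SD over the other genes was 0.37.

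Smarcc1 had a depth of 43.4 over 30 bins against a median of 35.6 for 70 other genes, of which 18 were deeper. It was 0.29 above that median in log2, with an SD of 0.41 over the genes. Arid1a had 25.4 over 22 bins against a median of 33.5 for 747 other genes, 80.1% of which were deeper. It was at -0.40 in log2, within the SD of 0.45, and at -0.24 when only genes within 5 Mb were used. No gene of the 4 stood out from its segment by more than the spread of the genes in it.

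**Figure D4:**
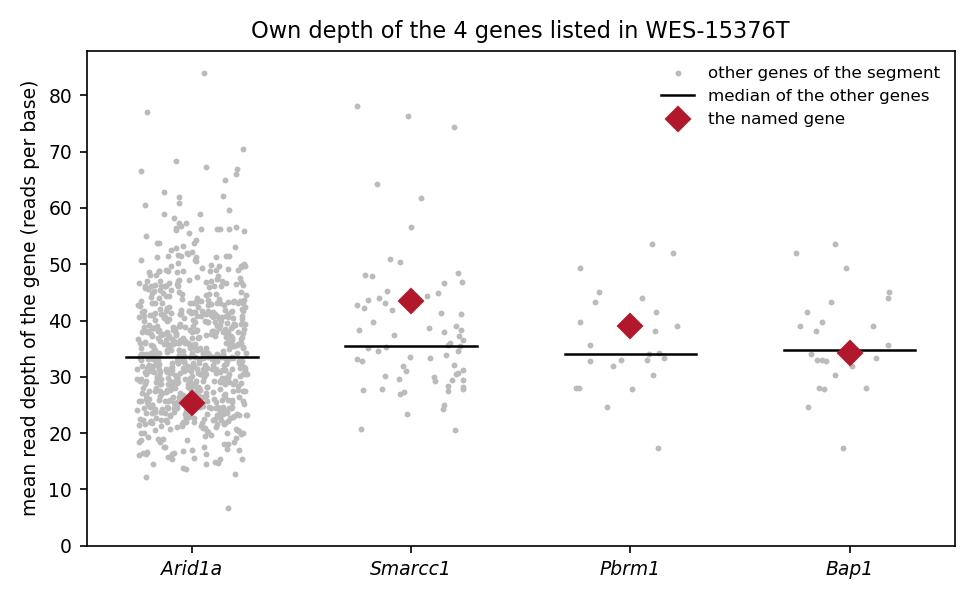
Mean read depth of each listed gene in 15376T (y axis, reads per base) is shown for Arid1a, Smarcc1, Pbrm1 and Bap1 (red diamonds), with the other genes of the same segment that have at least 5 bins (grey points) and their median (black line). Arid1a, at 25.4, lies below its median of 33.5, Bap1 lies at its median, and Pbrm1 and Smarcc1 lie above theirs.

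The BAF was low for most of the 10 genes. It ranged from 0.051 for Smarcc1 to 0.239 for Arid2 in 15376T and from 0.043 for Brd7 to 0.366 for Arid1b in 14837T. The minor allele was called at 0 copies for all 10 genes in 15376T and for 8 in 14837T, with Arid1b and Smarca4 (BAF 0.194) called at 2 copies and 1 copy. The same call was given to 140 of 160 autosomal segments (87.5%) in 15376T and to 185 of 193 (95.9%) in 14837T, among those with an allele call. C57BL/6 is an inbred strain, and the number of variants behind each BAF is not listed, so loss of an allele at these genes cannot be told from a lack of variants.

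The other subunits and the partners of Bap1 were read from the same tables. Of 31 such autosomal genes, 2 were gained and 6 lost in 15376T, and 7 were gained and 6 lost in 14837T, beside the shares of all genes given above. The call differed for 10 of 31, beside 29.3% of all genes. Lost in both lines were 3, beside 22.4% of all genes, and gained in both were 2, beside 6.87%. The remaining 16 were at 2 copies in both lines. The median log2 of the 31 genes was 0.050 in 15376T and 0.040 in 14837T.

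Among the 22 further SWI/SNF subunits the call differed for 6, beside 29.3% of all genes. Smarcd1, a core subunit, was at 0.0086 in 15376T, in the segment to the right of Arid2, and at 0.33 in 14837T, where it shared the gained segment of Arid2. Phf10, a PBAF subunit, was at -0.023 in 15376T, in the segment of Arid1b. In 14837T it was at 0.23, only 0.026 above the threshold of a gain. Actb, the actin of the ATPase module, was at 0.094 in 15376T and 0.32 in 14837T, and Bicral, an ncBAF subunit, at -0.019 and 0.32. These 4 genes were called at 2 copies in 15376T and 3 in 14837T, the same calls as Smarca4, Smarca2, Arid1b and Arid2. The share of all genes with this pair of calls is not given here, so it is not read as a pattern of the subunits.

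Brd9, the bromodomain protein of ncBAF, was at -0.091 in 15376T and lost at -0.53 in 14837T. Ss18, the subunit fused in human synovial sarcoma, was lost at -0.62 in 15376T and called at 2 copies, at -0.16, in 14837T. Actl6a, an actin-like subunit, was gained in both lines, at 0.74 (4 copies) in 15376T and 0.43 (3 copies) in 14837T. Dpf2, a BAF subunit that reads histone marks, was gained in both as well, at 0.33 and 0.52. Lost in both were Dpf1 (-0.53 and -0.31), Bcl7c (-0.53 and -0.30) and Bicra (-0.54 and -0.42). Actl6a had a depth of its own of 124.7 in 15376T and 101.3 in 14837T over 14 bins. The medians of other genes in its segment were 90.5 and 81.4. Bicra had 23.6 and 26.8, also over 14 bins, against medians of 32.6 and 37.1. These depths are not scaled between the libraries and also hold capture efficiency, so they are no separate support for the calls.

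Among the 9 autosomal partners of Bap1 the call differed for 4, beside 29.3% of all genes. Asxl2, one of the Asxl proteins that activate the deubiquitinase, was lost at -0.42 in 15376T and called gained at 0.203 in 14837T, just above the threshold. Its relative Asxl3 was at -0.62 and -0.13. Mbd6 was at 0.12 in 15376T and lost at -0.38 in 14837T, and Kdm1b, a histone demethylase, at -0.036 and -0.47. On the X chromosome, counted apart, Hcfc1 was at 2 copies in both lines (0.060 and -0.067). Ogt, a sugar transferase, was at -0.56 (1 copy) in 15376T and -0.088 (2 copies) in 14837T. The copy-number reference is not named, so its number of X copies is not known, and the call of Ogt is not read as a loss.

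**Figure D5:**
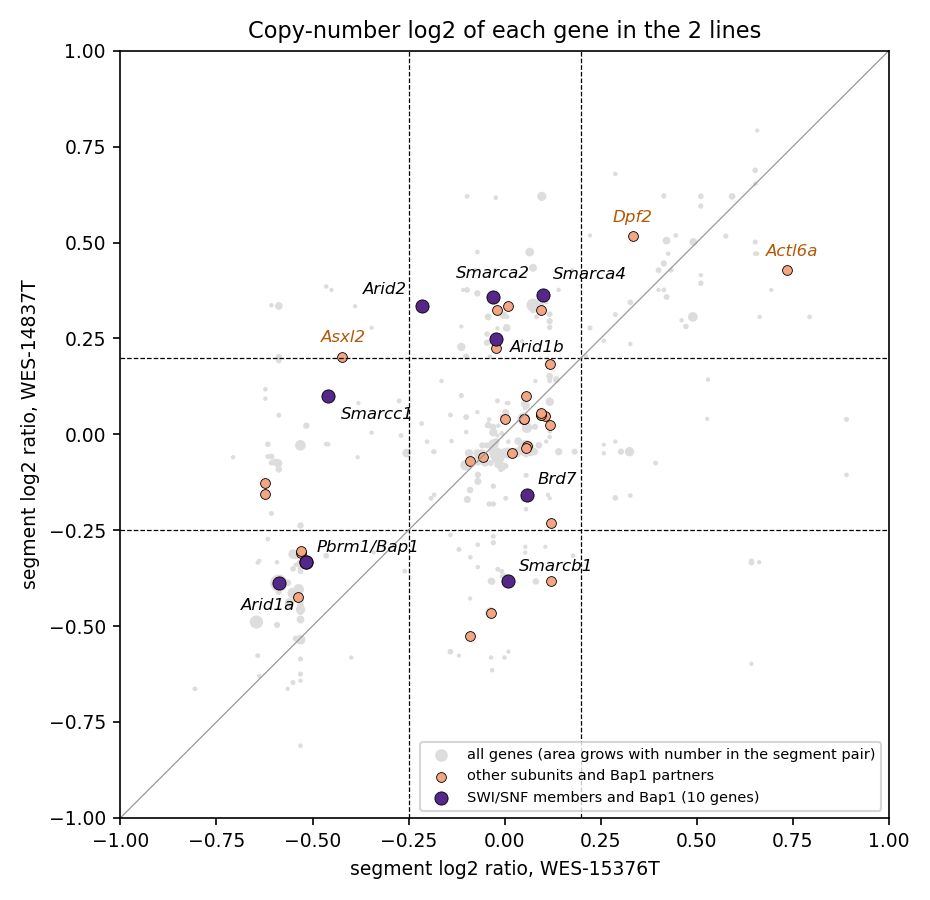
The segment log2 ratio of each gene in 15376T (x axis) is plotted against that in 14837T (y axis), with all autosomal genes in grey, the other subunits and Bap1 partners in orange and the 10 genes in purple; dashed lines mark the thresholds of -0.25 and 0.2, the diagonal marks equal values, and genes outside -1 to 1 are not drawn. Arid2 and Smarcc1 lie far above the diagonal, at -0.22 and 0.33 and at -0.46 and 0.10, and Smarcb1 lies below it.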

How the data were processed

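DNA of the lines 15376T and 14837T was captured and sequenced on an Illumina NovaSeq instrument, with 1 library per line. The authors deposited log2 ratios of segment coverage to a copy-number reference that is not named in the sources used here. The deposited depth is an unnormalized coverage signal, the deposited BAF a fraction from 0 to 1, and the weight deposited by the authors a score that was not used. Integer copy numbers were used as called by the authors. The submitters' processing notes name the build mm10. The aligner and filters are not given in the sources used here.

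The members and the gene lists were chosen with earlier results of these data known. The segment of each gene was found by its name. Gene positions came from RefSeq on GRCm38.p6, and the RefSeq midpoint settled a gene listed in more than 1 segment. Counts were set beside 20947 autosomal genes lying in 1 segment of each line. The differences are 15376T minus 14837T, and linear copies are 2 times 2 to the power of log2. Genes beside the members were named where a border lay within 500 kb, and other subunits where their call differed, where they were gained in both lines, among the 3 lowest lost in both, or where they shared a segment with a member. An allele of the mice and a gene beside the members are not reported here. Results were also computed with calls at a log2 of 0.3 or 0.5 in size, log2 recentred on the autosomal median, segment depths, segments by RefSeq midpoint, at least 100 bins, all listed genes and genes within 5 Mb. Python 3.11.15, numpy 2.4.6, pandas 2.3.3 and matplotlib 3.10.9 were used. Only the threshold calls, the weighted median and the finding of segments were tested, on simulated or small invented data. Mean depths were 43.4 (15376T) and 47.5 (14837T). No spread over bins is given, so a segment has no interval of its own.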

Additional observations from a re-analysis of the deposited data

Results flagged for a closer look

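Asxl2, a partner of Bap1, was called lost in 15376T, with a log2 of -0.42, and gained in 14837T, with 0.203. The segments beside Pbrm1 and Bap1 were called gained in 15376T, with log2 of 0.66 (from 30479599) and 0.72 (from 31734939), where 14837T was called lost. These differences between the lines rest on 1 library each and were not tested.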

How the results depend on the processing

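No paired analysis was possible because the labels give no replicate numbers and there is 1 library per line. The difference between the lines kept its sign for each of the 10 genes when log2 was recentred or replaced by segment depths. Calls at an absolute log2 of 0.5 gave 0 of the 10 genes gained and 0 lost in 14837T. The call then differed for 3 of them, Arid1a, Pbrm1 and Bap1, which the authors' thresholds call lost in both lines. The same setting gave 1 of the other subunits and partners gained in 15376T, 1 gained in 14837T and 1 lost in 14837T, since the thresholds of the authors' calls are lower. At an absolute log2 of 0.3, 3 of the 10 genes were gained in 14837T, without Arid1b, and the call differed for 5. The shares of all genes at 0.3 and 0.5 are not given here, so these counts have none beside them. With segment depths in place of log2, the difference was -0.44 for Arid2 and 0.080 for Brd7, and the cause was not tested. Calls at 0.3 and the other settings moved no count by more than 1.5 times. They moved no difference between the lines, for the 10 genes, by more than the SD of 2-copy segments. The own depth of Arid1a went from -0.40 to -0.24 in log2 with genes within 5 Mb. A filter of at least 100 bins removed none of the 10 genes. The difference of the genes' own depths was not run, as none of the 10 is listed in 14837T. No read counts are listed, so what the depth limits in a segment could not be worked out.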

Other observations

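Some segment borders lay at the same place in both lines. Of 164 internal autosomal borders of 15376T, 29 (17.7%) lay within 10 kb of a border of 14837T and 38 (23.2%) within 100 kb. The right border of Arid1a and that of Smarca2 were among the shared ones within 10 kb. In each line the called copy number was the same on either side of these borders.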
